A study of Mus musculus with 6 samples.

Results

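Laminins, nidogens, perlecan, agrin, nephronectin, the Fraser proteins and fibronectin make up much of the glycoprotein scaffold that kidney cells rest on, and integrins are the receptors that hold cells to it. A set of 36 genes for these proteins was followed in embryonic mouse kidneys, 19 encoding ligands and 17 encoding integrin subunits. They were taken by symbol from a list that was drawn up with earlier results of these data known, and each matched exactly 1 of the 24749 Ensembl gene identifiers in the deposited table. All 36 reached the mean of 0.5 FPKM (fragments per kilobase of transcript, scaled for library depth) over the 6 libraries that was required for testing. RNA of whole dissected kidneys at stage E15.5 had been sequenced in 3 libraries labelled Foxd1cre; Yapc/c;Tazc/c, with a Foxd1-driven Cre and loxP-flanked Yap (Yap1) and Taz (Wwtr1) alleles, and in 3 libraries labelled wild-type and Cre negative. They are called knockout and wild-type kidneys here. The strain was mixed in both, and whether the wild-type kidneys carried floxed alleles was not stated in the labels. Foxd1 drives Cre in the stromal progenitors of the kidney, so that nephron, ureteric and endothelial cells keep both genes as far as Cre stays in that lineage. Nothing in the labels says that libraries came from separate embryos, so the p-values reflect how these libraries vary, some of which may be technical variation. YAP and TAZ are transcriptional co-activators that the Hippo kinases hold in check, and the series asks how they act in pericyte differentiation.

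Laminins are cross-shaped trimers of an alpha, a beta and a gamma chain that polymerise into the first sheet of a basement membrane. Nidogens, perlecan and agrin bind laminin and tie it to collagen IV, and fibronectin forms a fibrillar matrix in the interstitium. An integrin is a pair of an alpha and a beta subunit. Integrin beta1 pairs with most alpha subunits, while beta3, beta5, beta6 and beta8 pair with alphav and read the RGD tripeptide in ligands such as fibronectin and vitronectin. In the developing kidney, nephronectin on the ureteric bud is bound by integrin alpha8/beta1 on the surrounding mesenchyme.

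The libraries held about 12700000 to 15500000 fragments, a rough estimate from the steps between the lowest values, which covers counting only. The values had been scaled before deposit, so the estimate can differ from a library's own depth. Wwtr1 fell to 68.4% of wild type (log2 -0.51, limma adjusted p = 0.0235), while Yap1 measured 88.9% (log2 -0.16, adjusted p = 0.378), both over the whole gene. The Wwtr1 call was lost when rescaled to equal sums (0.0516) and when wild-type library 2 or any knockout library was left out (adjusted p between 0.0682 and 0.117, log2 between -0.55 and -0.48). It was also lost when equal replicate numbers were treated as pairs (limma adjusted p = 0.108). Wild-type library 3 stood apart from the other libraries on the first principal component (26% of the variance). On the second (24.5%) wild-type library 1 lay farthest out, at 33.3 against -20.3 to 16.5 elsewhere. The summed FPKM of 5 skeletal muscle markers was 59.1 in wild-type library 3 against 2.69 to 10 elsewhere, and that of 5 neural and glial markers 23.6 against 3.15 to 3.98. Kidney markers were present in every library, with sums of 64.3 to 72.8 FPKM for 5 nephron progenitor genes and of 45.4 to 57.3 FPKM for 5 podocyte genes. Values are of whole organs, in which fewer cells of a type and less RNA per cell cannot be told apart.

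Of the 36 genes, 4 were called between genotypes by limma at an adjusted p under 0.05, which is 11.1%, against 0.734% of the 16899 genes tested. Lama2, Nid1 and Fn1 were lower in knockout kidneys (8.33% of the set, against 0.604% of all genes called lower) and Itgb5 was higher (2.78%, against 0.130%). At an unadjusted p under 0.05 there were 11 lower and 3 higher, 38.9% together against 16.1% of all genes, of which 6.94% were lower and 9.14% higher. The 3 knockout libraries did not overlap the 3 wild-type libraries for 16 of the 36 (44.4%, against 24.3%), with 12 lower and 4 higher, against 11.8% of all genes lower and 12.5% higher. All 3 lower calls were ligands and the higher call was an integrin. The median log2 change was -0.02 over the 19 ligands and -0.06 over the 17 integrins, beside -0.0020 over all genes tested, all 3 close to 0. Within 0.1 of 0 on the log2 scale lay 11 of 19 ligands (57.9%) and 3 of 17 integrins (17.6%), beside 48.7% of all genes tested; a difference between the classes was not tested.

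**Figure D1:**
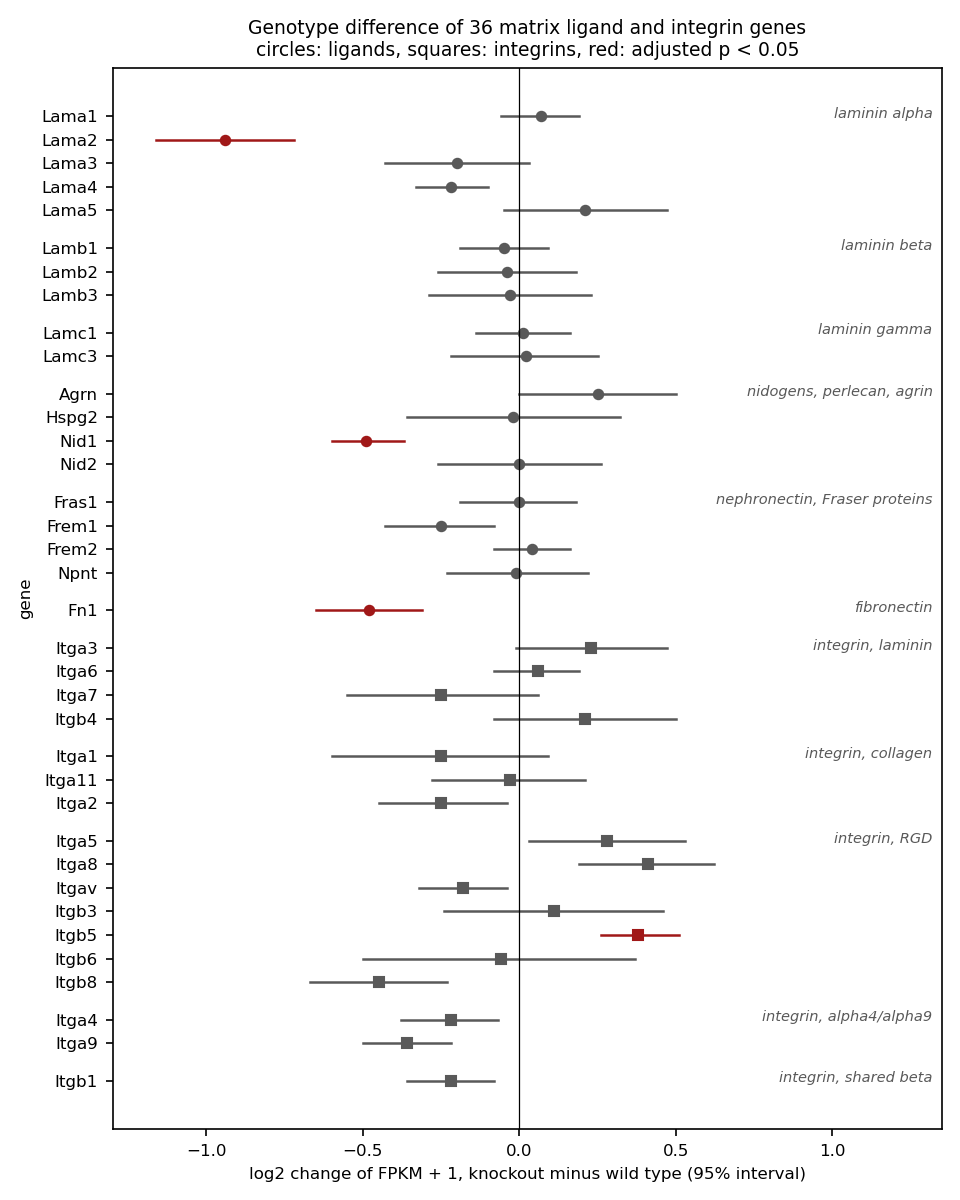
Log2 change of FPKM + 1, knockout minus wild type, for each of the 36 genes with its 95% interval, grouped by role from laminin alpha chains (top) to the shared beta1 subunit (bottom); circles are ligands, squares integrins, and red marks an adjusted p under 0.05. Lama2 lies farthest to the left at -0.94, the laminin beta and gamma chains lie within 0.1 of 0, and Itgb5 is the called integrin at 0.38.

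Summed levels of some cell type markers differed between the genotypes as well. The 5 stroma markers summed to 197 to 236 FPKM in wild-type against 157 to 176 FPKM in knockout libraries. The 236 FPKM was of wild-type library 3, and the other wild-type libraries were at 197 and 201 FPKM. Of these markers 4 were lower at an unadjusted limma p under 0.05 (80%, against 6.94% of all genes tested). By limma 0 were called, against 0.734% of all genes. Foxd1, the gene that drives Cre in the knockout kidneys, was among the 4 at 58.9% of wild type. An effect of the Cre allele on Foxd1 was not tested. The 5 mural cell markers summed to 116 to 126 and 76.2 to 88.6 FPKM. Of them 2 were called lower (40%, against 0.604% of all genes), Acta2 (log2 -0.84) and Tagln (log2 -0.86). The call of Tagln was lost whichever library was left out (limma adjusted p between 0.0603 and 0.15) and with no filter, quantile normalization or no robust moderation (0.0546 to 0.0759). That of Acta2 was lost when any library but knockout library 3 was left out (0.0543 to 0.126). The 5 ureteric markers summed to 118 to 124 and 139 to 145 FPKM, with 3 higher unadjusted (60%, against 9.14% of all genes) and 0 called. Endothelial (151 to 170 and 152 to 158 FPKM) and macrophage sums (20 to 22.6 and 19.4 to 20.7 FPKM) overlapped between genotypes. No marker of these 5 lists was at 0 in any library. The part of these shifts in the changes of Lama2, Nid1, Fn1 and Itgb5 was not tested.

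Upstream sequence was looked at for the called genes, since YAP and TAZ act through TEAD factors and Lama2 and Nid1 moved together. RefSeq start sites of 24 of the 36 genes (30 start sites) were matched in the promoter table for GRCm38.p6, Fn1 not among them. The 250 bases before each start were searched on both strands for the TEAD core GGAATG, the AP-1 site TGANTCA, the GC box GGGCGG, the TATA box TATAAA and the CArG box bound by SRF. The AP-1 site (6.75% of all windows) and TATAAA (12.4%) were found in 0 of the 30. Capitals mark the matches, which do not overlap one another, and sequences read 5′ to 3′ on the strand of the gene. The Nid1 sequence ends where the first GENCODE exon begins.
Lama2, chr10:27616943-27617192, minus strand: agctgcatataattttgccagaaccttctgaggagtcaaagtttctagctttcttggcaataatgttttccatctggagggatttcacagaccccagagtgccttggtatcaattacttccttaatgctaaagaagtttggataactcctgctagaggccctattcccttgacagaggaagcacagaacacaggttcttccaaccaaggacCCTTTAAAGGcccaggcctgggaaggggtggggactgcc
Nid1, chr13:13437352-13437550, plus strand: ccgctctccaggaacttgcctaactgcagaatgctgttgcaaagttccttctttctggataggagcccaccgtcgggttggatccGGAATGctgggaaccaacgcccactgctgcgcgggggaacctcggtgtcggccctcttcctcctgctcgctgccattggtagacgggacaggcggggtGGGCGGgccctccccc
Itgb5, chr16:33829415-33829664, plus strand: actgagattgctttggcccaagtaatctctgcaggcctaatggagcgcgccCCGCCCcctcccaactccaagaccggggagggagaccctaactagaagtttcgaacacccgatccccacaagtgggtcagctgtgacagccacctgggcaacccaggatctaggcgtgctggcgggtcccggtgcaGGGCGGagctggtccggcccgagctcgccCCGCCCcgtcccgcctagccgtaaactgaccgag
The capitals in Lama2 are a CArG box that starts 39 bases before the start site, and this motif is in 1.47% of the 32851 windows of all genes. Those in Nid1 are GGAATG, 165 bases before the start, and a GC box, 67 bases before it; GGAATG is in 12.6% and the GC box in 32.7% of all windows. Those in Itgb5 are 3 GC boxes. GGAATG stood in 4 of the 30 windows of the set (13.3%, for Nid1, Frem2, Itgb1 and Lamb3), a share near that of all windows; the GC box stood in 13 (43.3%) and the CArG box in 2 (6.67%, for Lama2 and Itgb6). A match is a run of letters, not a binding site shown by these data, and the gene model of Lama2 in GENCODE extends upstream of this RefSeq start.

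Lama2, on chromosome 10 (26980036 to 27619758, GRCm38, minus strand), encodes the laminin alpha2 chain, known best from the basement membrane around muscle fibres and nerves and found in mesenchyme. It measured 19.5, 17.9 and 16.4 FPKM in wild-type libraries 1, 2 and 3 and 9.25, 7.81 and 9.57 FPKM in knockout libraries 1, 2 and 3. Every knockout library was thus well below every wild-type library. The mean fell from 18.0 ± 1.55 to 8.88 ± 0.936 FPKM (SD, n = 3 each), 49.4% of wild type, with a log2 change of -0.94 (SE 0.09, 95% interval -1.16 to -0.72, limma adjusted p = 0.00647). The call held when any 1 library was left out (adjusted p between 0.0126 and 0.0461). Wild-type library 3 had the lowest Lama2 value of its genotype, and without it the log2 change was -1.0. Muscle and neural markers were high in that library, and their part in the Lama2 values was not tested. Annotated exons of the long noncoding model 4930579H20Rik overlap Lama2 on the opposite strand, and its own level was at most 1.18 FPKM.

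The other alpha chains did not pass the test. Lama4, the alpha chain of vascular and mesenchymal basement membranes, measured 54.1, 50.9 and 52.0 FPKM in wild-type against 45.4, 45.3 and 43.8 FPKM in knockout libraries. The groups did not overlap, and the log2 change of -0.22 had an adjusted p of 0.118. Lama1, the alpha1 chain of early epithelial basement membranes in the nephron, stayed between 46.9 and 48.6 FPKM in wild-type libraries and between 47.5 and 51.4 FPKM in knockout libraries (log2 0.07, 95% interval -0.06 to 0.19). Lama5, the alpha5 chain that takes over from alpha1 as nephrons mature, measured 15.8 to 17.3 FPKM in wild-type libraries, and 23.1, 17.1 and 17.6 FPKM in knockout libraries 1, 2 and 3, with knockout library 1 above all others and the other 5 close together (log2 0.21, adjusted p = 0.399). Lama3, an alpha chain of stratified and ureteric epithelia, was low throughout, at 1.74 ± 0.225 and 1.39 ± 0.0366 FPKM (SD, n = 3 each; no overlap, log2 -0.20, adjusted p = 0.375).

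Because FPKM is per length, chains can be set beside each other within a library. The alpha chains summed to 136 ± 2.45 FPKM in wild-type against 124 ± 5.82 FPKM in knockout kidneys (SD, n = 3 each). Lama2 held 14.1%, 13.1% and 12.3% of that sum in wild-type libraries 1, 2 and 3, and 7.09%, 6.56% and 7.76% in the knockout libraries. Its share was lower in each knockout library than in any wild-type one, while the share of Lama1 was higher in each, at 39.4% to 41.4% against 33.9% to 35.6%, although the level of Lama1 itself overlapped between genotypes. Shares of one sum depend on each other, and they are given as a description. The ratio of Lama1 to Lama5, the pair that succeed each other in nephron basement membranes, was 2.91 ± 0.0881 in wild-type and 2.64 ± 0.361 in knockout kidneys (SD, n = 3 each). The groups overlapped, with a log2 difference of -0.15 (exact two-sided permutation p = 0.2, Benjamini-Hochberg adjusted p = 0.2 over 2 ratios). The smallest p this test allows is 0.1, so it can decide little. Knockout library 1 was the lowest at 2.23, with knockout libraries 2 and 3 at 2.78 and 2.91.

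**Figure D2:**
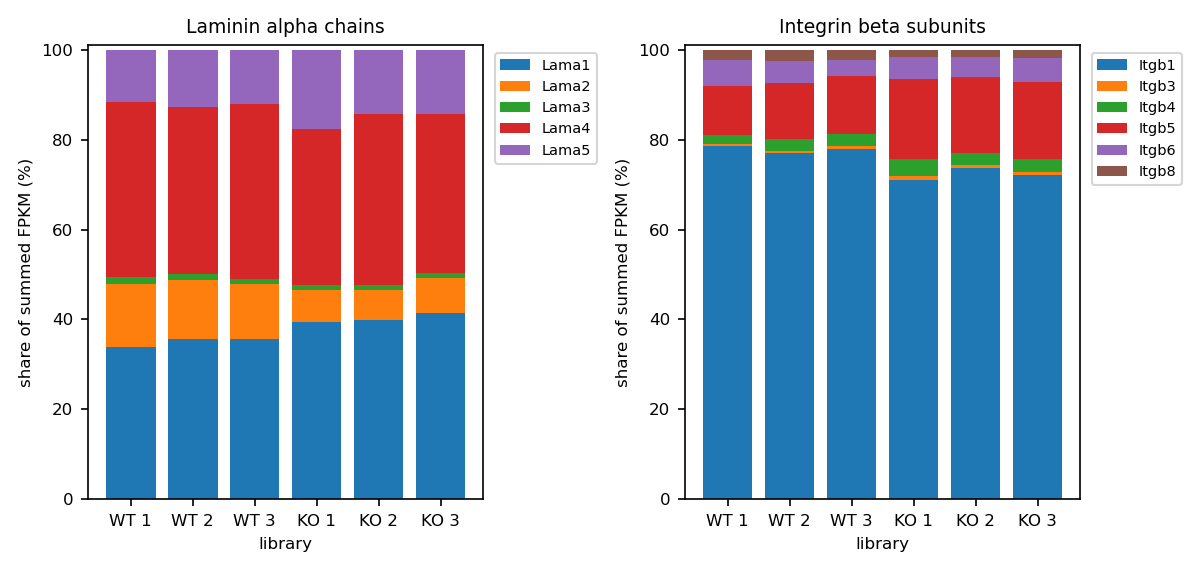
Share of summed FPKM, in percent, held by each laminin alpha chain (left) and each integrin beta subunit among the set (right), with 1 bar for each of the 3 wild-type (WT) and 3 knockout (KO) libraries. The Lama2 segment takes 12.3% to 14.1% in wild-type and 6.56% to 7.76% in knockout libraries, and the Itgb5 segment 10.9% to 13.0% and 17.0% to 17.7%.

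Beta and gamma chains, with which every alpha chain assembles, did not follow Lama2. Lamb1, the widespread beta1 chain, was the second highest gene of the set by wild-type mean, at 135 ± 8.23 FPKM in wild-type against 131 ± 1.84 FPKM in knockout kidneys (SD, n = 3 each; log2 -0.05, 95% interval -0.19 to 0.09). Lamc1, the gamma1 chain shared by most laminins, measured 82.7 ± 1.75 and 83.3 ± 6.04 FPKM (log2 0.01, 95% interval -0.14 to 0.16). Lamb2, the beta2 chain of the mature glomerular basement membrane, had a log2 change of -0.04 and Lamb3, a beta chain of epithelial laminin, one of -0.03. Lamc3 was low, at 2.96 ± 0.124 and 3.02 ± 0.395 FPKM (log2 0.02). In all 5 of these genes the groups overlapped, adjusted p lay between 0.723 and 0.961, and the sign of the change flipped for each but Lamb1 when single libraries were left out.

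Of the laminin-binding linkers, 1 of the 2 nidogens fell. Nid1 (chromosome 13, 13437551 to 13512269, plus strand), encoding nidogen-1, measured 38.1, 38.1 and 38.6 FPKM in wild-type libraries and 27.7, 25.9 and 27.4 FPKM in knockout libraries. The spread within each genotype was small beside the gap between them. The mean fell from 38.2 ± 0.278 to 27.0 ± 0.935 FPKM (SD, n = 3 each), 70.6% of wild type, with a log2 change of -0.49 (SE 0.05, limma adjusted p = 0.00702), and the call held without any 1 library (adjusted p between 0.0182 and 0.0484). Nid2, encoding its close relative nidogen-2, measured 30.4, 34.8 and 33.4 FPKM in wild-type against 38.8, 28.6 and 31.7 FPKM in knockout libraries. Knockout libraries thus lay both above and below the wild-type ones (95% interval of the log2 change -0.26 to 0.26). The ratio of Nid1 to Nid2, looked at after both values were known and not tested, was 1.26, 1.09 and 1.16 in wild-type and 0.714, 0.908 and 0.865 in knockout libraries, so that Nid1 was the higher of the pair in each wild-type library and the lower in each knockout library.

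The heparan sulphate proteoglycans of the basement membrane did not pass the test. Agrn, encoding agrin, measured 47.8, 50.5 and 53.8 FPKM in wild-type against 70.8, 52.6 and 59.1 FPKM in knockout libraries (log2 0.25, adjusted p = 0.311). Hspg2, encoding perlecan, measured 20.3, 22.6 and 22.7 FPKM and 27.5, 18.8 and 19.4 FPKM (log2 -0.02, 95% interval -0.36 to 0.32). In both genes knockout library 1 was the highest of all 6.

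Single libraries were often at an end of the range. Knockout library 1 was the highest of 6 for 14 of the 36 genes (38.9%, against 20.5% of all genes tested) and wild-type library 1 for 12 (33.3%, against 23.4%). Knockout library 2 was the lowest for 13 (36.1%, against 14.5%) and wild-type library 1 for 9 (25.0%, against 25.8%). The log2 value of knockout library 1 was more than 0.2 above the mean of the other knockout libraries for 11 genes, namely Lama5, Lamb2, Lamb3, Lamc3, Nid2, Hspg2, Agrn, Itga3, Itga7, Itgb3 and Itgb4. The longest annotated transcripts of those 11 had a median GC content of 57.9% (52.1% to 60.9%), and those of the other 25 genes 50.2% (40.4% to 57.3%). Itgb5, at 57.0% GC, did not share the shift and read nearly the same in all 3 knockout libraries. Itga5 (57.3% GC) and Itga11 (55.5% GC) did not share it either. The shift was counted among the 36 genes only, so no share of all genes tested stands beside it. None of the 4 called genes was among the 11. Without knockout library 1 the median log2 change of the ligands was -0.12, and the part of GC content in these values was not tested.

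**Figure D3:**
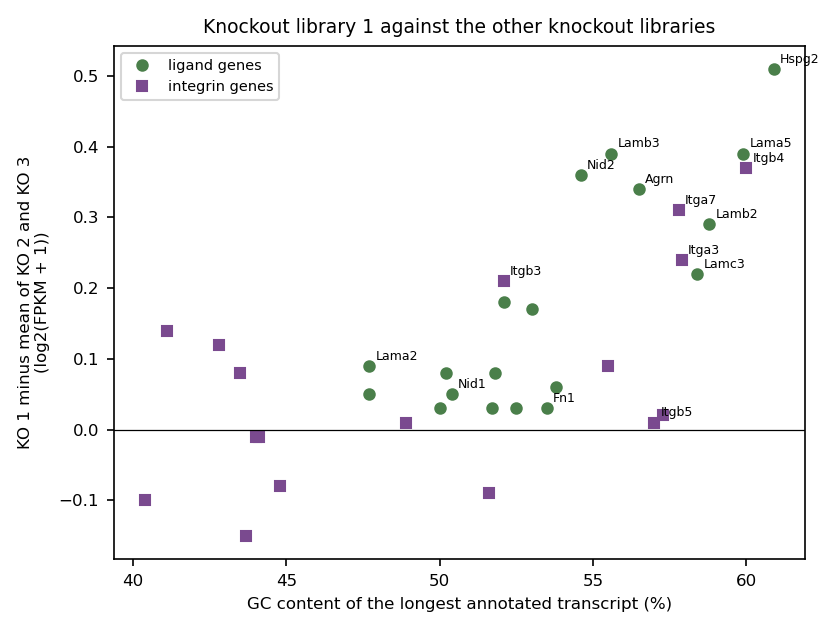
GC content of the longest annotated transcript (horizontal, percent) against the value of knockout library 1 minus the mean of knockout libraries 2 and 3 (vertical, log2(FPKM + 1)), 1 point per gene, circles for ligands and squares for integrins. The 11 genes above 0.2 all have at least 52.1% GC, and Lama2, Nid1, Fn1 and Itgb5 lie below 0.1.

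Nephronectin and, of the Fraser proteins, those of Fras1 and Frem2 are made by epithelia at the boundary with the mesenchyme. Npnt, encoding nephronectin, measured 32.1, 28.5 and 24.1 FPKM in wild-type against 29.1, 27.6 and 27.2 FPKM in knockout libraries. Its groups overlapped fully (log2 -0.01, 95% interval -0.23 to 0.22). Fras1 and Frem2, which with Frem1 form the complex lost in Fraser syndrome models, overlapped as well, with means of 42.7 and 42.6 FPKM for Fras1 and 44.5 and 45.9 FPKM for Frem2. Frem1, the member of this complex known for expression in mesenchyme, measured 70.3, 69.0 and 59.1 FPKM in wild-type against 56.5, 52.8 and 56.6 FPKM in knockout libraries. It did not overlap between genotypes, and its log2 change of -0.25 had an adjusted p of 0.191.

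Fn1 (chromosome 1, 71585520 to 71653200, minus strand), encoding fibronectin, was the third highest gene of the set and the highest of those called. It measured 96.4, 112 and 113 FPKM in wild-type libraries 1, 2 and 3 and 77.4, 73.8 and 77.5 FPKM in the knockout libraries. Each knockout library was lower than the lowest wild-type one, and the mean was 107 ± 9.27 against 76.2 ± 2.09 FPKM (SD, n = 3 each), 71.2% of wild type (log2 -0.48, SE 0.07, limma adjusted p = 0.0326). The call was lost when wild-type library 2, wild-type library 3 or any knockout library was left out (adjusted p between 0.0657 and 0.159, log2 between -0.49 and -0.44). Wild-type library 3, with high muscle and neural markers, had the highest Fn1 value, and the part of other tissue in it was not tested. Apol7d overlaps Fn1 exons on the opposite strand and measured at most 1.54 FPKM.

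**Figure D4:**
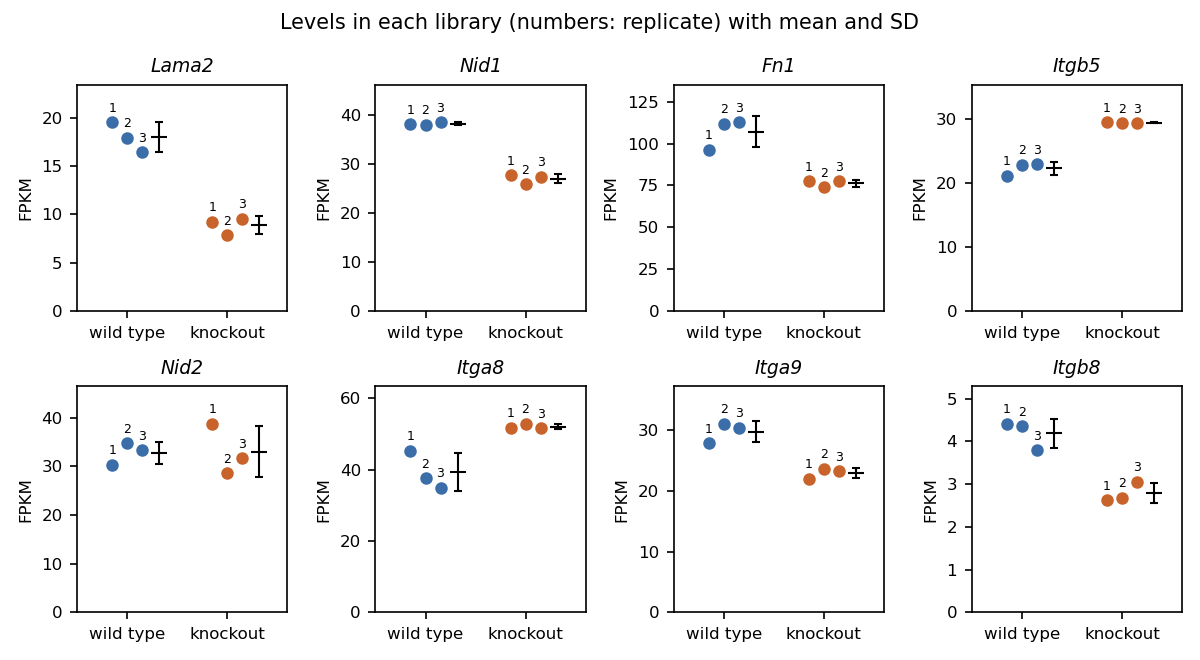
FPKM in each library for the 4 called genes (top row: Lama2, Nid1, Fn1, Itgb5) and for Nid2, Itga8, Itga9 and Itgb8 (bottom row), blue for wild type and orange for knockout, with the replicate number above each point and the mean and SD beside each group; axes start at 0. Groups are apart in every panel but that of Nid2, where knockout library 1 at 38.8 FPKM lies above and knockout library 2 at 28.6 FPKM below all wild-type libraries.

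Among the integrins that read the RGD tripeptide, Itgb5 rose. Itgb5 (chromosome 16, 33829665 to 33949338, plus strand) encodes integrin beta5, which with alphav binds vitronectin. It measured 21.1, 22.8 and 22.9 FPKM in wild-type libraries and 29.4, 29.3 and 29.3 FPKM in knockout libraries. The knockout libraries were nearly equal and all above the wild-type ones, and the mean rose from 22.3 ± 1.00 to 29.3 ± 0.0866 FPKM (SD, n = 3 each), 132% of wild type (log2 0.38, SE 0.05, limma adjusted p = 0.0263). With every library rescaled to the same sum it no longer passed (log2 0.36, adjusted p = 0.0715), nor did it when wild-type library 2 or a knockout library was left out (adjusted p between 0.0982 and 0.133).

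Itgb8, encoding the beta8 subunit that with alphav can release active TGF-beta, pointed the other way. It measured 4.41, 4.35 and 3.79 FPKM in wild-type against 2.62, 2.69 and 3.06 FPKM in knockout libraries. The groups did not overlap, the knockout mean was 66.7% of wild type, and the log2 change of -0.45 (95% interval -0.67 to -0.23) did not pass (limma adjusted p = 0.0968). Itgav, their common alpha partner, measured 39.7, 38.1 and 35.5 FPKM in wild-type against 34.5, 32.4 and 32.8 FPKM in knockout libraries (log2 -0.18, adjusted p = 0.218). The ratio of Itgb5 to Itgb8, looked at after the values were seen and not tested, lay between 4.79 and 6.04 in wild-type and between 9.56 and 11.2 in knockout libraries. Itgb6, an epithelial beta subunit, and Itgb3 overlapped between genotypes, with means of 8.96 and 8.36 FPKM for Itgb6 and of 1.10 and 1.26 FPKM for Itgb3.

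Itga8 and Itga5, which also read RGD but pair with beta1, measured higher in each knockout library without passing the test. Itga8, encoding the alpha8 receptor for nephronectin, measured 45.3, 37.6 and 34.9 FPKM in wild-type libraries and 51.7, 52.8 and 51.5 FPKM in knockout libraries. The wild-type libraries were spread, the knockout libraries were close together, and the groups did not overlap (132% of wild type, log2 0.41, 95% interval 0.19 to 0.62, adjusted p = 0.117). Without wild-type library 1, its highest wild-type value, the limma adjusted p was 0.0167 (log2 0.51). With any other library left out it did not pass (adjusted p between 0.12 and 0.323). The ratio of Npnt to Itga8 was 0.708, 0.757 and 0.692 in wild-type and 0.562, 0.523 and 0.527 in knockout libraries, lower in each knockout library (log2 difference -0.42, exact two-sided permutation p = 0.1, the smallest that 3 against 3 allows, Benjamini-Hochberg adjusted p = 0.2 over 2 ratios). Itga5, encoding the alpha5 subunit of the main fibronectin receptor, measured 5.0, 6.44 and 6.68 FPKM in wild-type against 7.59, 7.28 and 7.64 FPKM in knockout libraries (log2 0.28, adjusted p = 0.263). Fn1 and Itga5 thus pointed in opposite directions, with a ratio of 16.9 to 19.3 in wild-type and of 10.1 to 10.2 in knockout libraries; this ratio was chosen after the values were seen and was not tested.

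Itgb1, the subunit shared by most integrins, was the highest gene of the set. It measured 152, 142 and 137 FPKM in wild-type against 118, 127 and 123 FPKM in knockout libraries. The groups did not overlap, and the log2 change of -0.22 (95% interval -0.36 to -0.08) did not pass (adjusted p = 0.164). Of the summed FPKM of the 6 beta subunits, Itgb1 held 77.8% ± 0.794 in wild-type and 72.3% ± 1.33 in knockout kidneys, and Itgb5 12.1% ± 1.07 and 17.3% ± 0.337 (SD, n = 3 each).

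Itga9 and Itga4 encode related alpha subunits that bind tenascin C, osteopontin and other ligands outside the basement membrane. Itga9 was the gene closest to the threshold among those not called. It measured 27.8, 31.0 and 30.3 FPKM in wild-type against 22.0, 23.6 and 23.2 FPKM in knockout libraries, without overlap (77.2% of wild type, log2 -0.36, SE 0.06, limma adjusted p = 0.0551). It passed with a pseudocount of 0.1 (adjusted p = 0.0485), with a filter at a mean of 2 FPKM (0.044) and without wild-type library 1 (0.0455). Under every other alternative, the other libraries left out among them, it did not pass (adjusted p between 0.0534 and 0.208). Itga4 measured 12.4 ± 0.321 and 10.4 ± 0.661 FPKM (SD, n = 3 each), also without overlap (log2 -0.22, adjusted p = 0.193).

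Laminin and collagen receptors gave 0 calls by limma in 7 genes, where 0.734% of all genes tested were called. At an unadjusted p under 0.05 there was 1 of the 7, beside 16.1% of all genes. Itga6, encoding the alpha6 laminin receptor subunit, was the most abundant alpha subunit in both genotypes, at 62.4 ± 4.01 and 64.9 ± 0.691 FPKM (SD, n = 3 each; log2 0.06, 95% interval -0.08 to 0.19). Itga3, encoding the alpha3 subunit needed by podocytes, measured 7.61, 9.36 and 8.77 FPKM in wild-type against 11.5, 9.56 and 9.61 FPKM in knockout libraries (log2 0.23, adjusted p = 0.326). Itgb4, the beta4 partner of alpha6 in hemidesmosomes, had a log2 change of 0.21, and Itga7, a muscle laminin receptor subunit at 0.910 ± 0.166 and 0.616 ± 0.224 FPKM, one of -0.25, and both overlapped between genotypes. Among collagen receptors Itga2 was lower without overlap (4.35 ± 0.215 and 3.51 ± 0.308 FPKM, log2 -0.25, unadjusted p = 0.0263 and adjusted p = 0.25 by limma). Itga1 spread from 16.5 to 25.4 FPKM within wild-type libraries alone, and Itga11 stayed under 1 FPKM in every library.

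**Figure D5:**
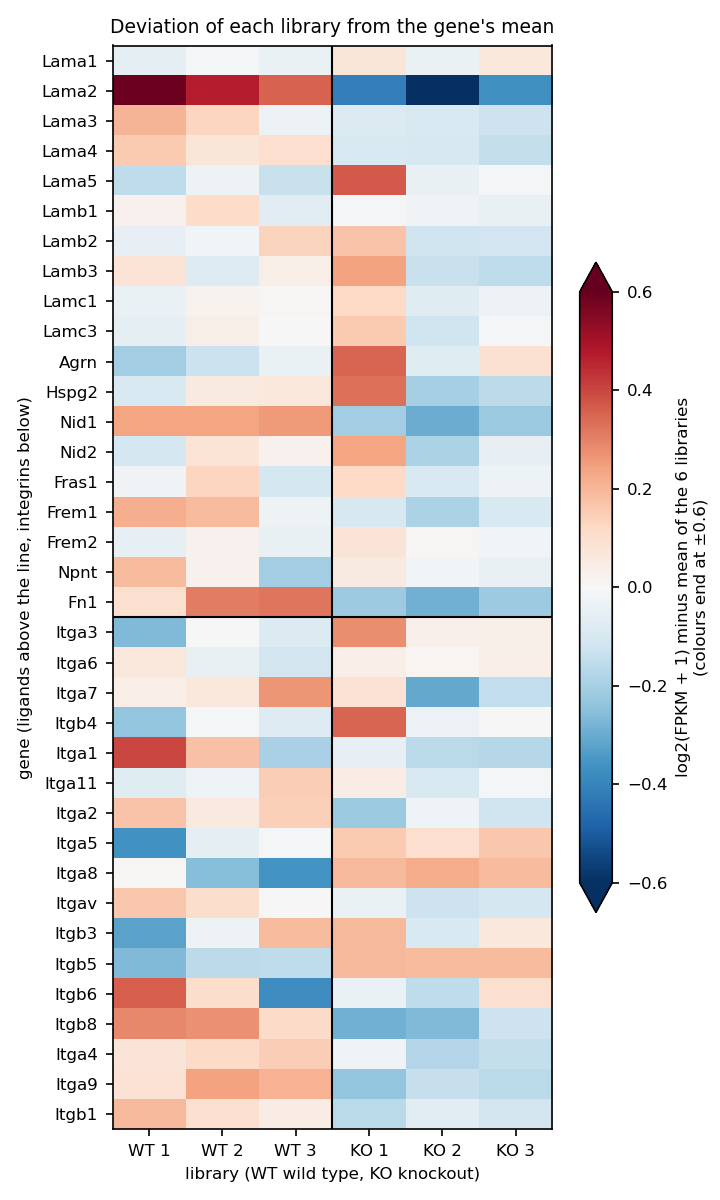
Deviation of each library (columns, 3 wild-type WT and 3 knockout KO) from the gene's mean over the 6 libraries in log2(FPKM + 1), red above and blue below the mean, for the 19 ligand genes (above the horizontal line) and the 17 integrin genes (below it). Lama2, Nid1 and Fn1 are red in all wild-type and blue in all knockout libraries, Itgb5 and Itga8 are blue in wild-type and red in knockout libraries except that wild-type library 1 is near the mean for Itga8, and knockout library 1 is red across Lama5, Agrn, Hspg2 and Itgb4.

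Genes that work beside these ligands and receptors were read from 5 lists with 80 genes, of which 74 were tested. Svep1 and Fbn1 were called lower (2.70% of the 74, against 0.604% of all genes) and 0 were called higher by limma (0.130% of all genes). At an unadjusted p under 0.05 there were 18 lower (24.3%, against 6.94% of all genes) and 12 higher (16.2%, against 9.14%). Both called genes are in the list of 13 other integrin ligands, where 10 of 11 tested genes lay below 0 (90.9%, against 50.4% of all genes), with a median log2 change of -0.36. Svep1, encoding polydom, a ligand of integrin alpha9/beta1, measured 11.6, 12.0 and 12.4 FPKM in wild-type against 8.62, 7.01 and 7.85 FPKM in knockout libraries, all lower (log2 -0.56, SE 0.08, adjusted p = 0.0326). Fbn1, encoding fibrillin-1, measured 34.3, 35.4 and 39.0 FPKM and 27.8, 24.0 and 25.4 FPKM (log2 -0.48, adjusted p = 0.0379). Both calls were lost whichever library was left out (adjusted p between 0.0542 and 0.142 for Svep1 and between 0.0582 and 0.157 for Fbn1) and when rescaled to equal sums (0.0801 and 0.0994). Both genes, and Egfl6, Vwf, Edil3, Tgfbi and Postn of the same list, were highest in wild-type library 3, with its high muscle and neural markers. The part of other tissue was not tested.

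The 20 other basement membrane genes had 0 calls by limma, where 0.734% of all genes were called, with 4 lower (20%, against 6.94% of all genes) and 4 higher (20%, against 9.14%) at an unadjusted p under 0.05. Hmcn1, encoding hemicentin-1 (log2 -0.35, adjusted p = 0.0936), and Sparc, a collagen-binding glycoprotein at 166 to 186 FPKM in wild-type against 138 to 150 FPKM in knockout libraries (log2 -0.30, adjusted p = 0.0975), had the smallest p. Of 15 other matrix receptors and partners 0 were called, against 0.734% of all genes. Unadjusted, 3 were lower (20%, against 6.94% of all genes) and 4 higher (26.7%, against 9.14%). The syndecan gene Sdc2 (log2 -0.30, adjusted p = 0.0891) and the collagen receptor kinase gene Ddr1 (log2 0.48, adjusted p = 0.124) led them in opposite directions. Of 24 adaptors that join integrins to actin 0 were called, against 0.734% of all genes. Unadjusted, 6 were lower (25%, against 6.94% of all genes) and 3 higher (12.5%, against 9.14%). The smallest p were those of Vcl, encoding vinculin (27.3 to 28.2 FPKM in knockout against 32.1 to 34.4 FPKM in wild-type libraries, log2 -0.27, adjusted p = 0.0786), and Flna, encoding filamin A (log2 -0.29, adjusted p = 0.11). Integrins of blood cells were scarce. Of 8, 4 reached the filter. By limma 0 were called (against 0.734% of all genes) and 0 had an unadjusted p under 0.05 (against 16.1%). The 8 summed to 9.31 to 11 FPKM in wild-type against 8.88 to 11 FPKM in knockout libraries (Itgam log2 -0.16, Itgae log2 -0.14).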

How the data were processed

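RNA-seq of dissected E15.5 mouse kidneys was deposited as 1 table of FPKM values for 24749 Ensembl identifiers in 6 libraries. The submitters' processing notes name bcl2fastq 2.17.1.14, Salmon and the build GRCm38 (mm10). Salmon's version, the gene models, strand use and any filters were not stated. The authors' FPKM values had been scaled before deposit, since log2 ratios to each gene's geometric mean have the same median (0.0038) in all libraries. Symbols were found for 24469 identifiers. Positions and transcripts are from GENCODE M21 (GRCm38), promoters from RefSeq (GRCm38.p6). No 2 libraries held identical values.

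FPKM are not counts, so limma 3.58.1 (R 4.3.3) was fitted to log2(FPKM + 1) with genotype as the only term and trended, robust moderation, for the 16899 genes whose mean reached 0.5 FPKM. Log2 changes, knockout minus wild type, are on that scale and understate changes of low genes. Adjusted p-values are Benjamini-Hochberg values over all genes tested, called under 0.05. Percentages of wild type compare mean FPKM. Single ratios had an exact permutation test over 20 assignments. The fit was tested on simulated data. Depth was estimated from the scaled values of genes with 1 annotated transcript of at least 2000 bases. Alternatives were pseudocounts of 0.1 and 0.5, no filter or one at 2 FPKM, rescaling to equal sums, quantile normalization, no robust option, a replicate block and leaving out each library. Members and further lists were chosen with earlier results of these data known, so their counts are descriptions. All 36 members are named, called ones and those with the smallest p in full, and from each further list the called genes or the 2 with the smallest p.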

Additional observations from a re-analysis of the deposited data

How the results depend on the processing

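Of the 4 calls, those of Lama2 and Nid1 held under every alternative but the replicate block (adjusted p = 0.0559 and 0.0787). Fn1 was also lost with no filter on low values, when rescaled to equal sums (adjusted p = 0.0502 for each) and with no robust moderation (0.0574), and Itgb5 when rescaled to equal sums. Of the 36 genes, those called lower numbered 3, and 2 to 4 when 1 library was left out; those called higher numbered 1, and 0 to 2 when 1 library was left out and 0 when rescaled to equal sums. Genes called over the whole table numbered 124, and 52 to 147 with 1 library left out. In the further lists 2 genes were called lower, 0 with no filter, when rescaled to equal sums and with no robust moderation, and 1 (Svep1) with quantile normalization. With 1 library left out 0 to 1 were called there and 0 of them was Svep1 or Fbn1, the 1 being Hmcn1 without wild-type library 3. In those lists 0 were called higher under each alternative. The median log2 change of the ligands ranged from -0.12 to 0.03 with 1 library left out, and that of the integrins from -0.18 to -0.0015; the latter was -0.12 with a filter at a mean of 2 FPKM, which leaves out 3 of the 17 integrins. The log2 differences of the Lama1 to Lama5 ratio (-0.23 to -0.03) and of the Npnt to Itga8 ratio (-0.45 to -0.38) kept their sign with 1 library left out.

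The replicate block treats equal replicate numbers as pairs. Deviations from the group means correlated at 0.024, -0.042 and 0.05 between same-numbered libraries, and at -0.093 to 0.081 between differently numbered ones. With 3 libraries per genotype these values cannot decide whether the numbers pair the samples, and the labels do not say. With the block 32 genes were called over the whole table, 0 of the 36 lower and 0 higher, and 0 genes of the further lists. The calls of Wwtr1, Acta2 and Tagln were lost with it as well (limma adjusted p = 0.108, 0.127 and 0.231).

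Genes near 0 changed sign with the setting. Lamc1 was at -0.01 when rescaled to equal sums, and Nid2 at 0.0022 and Fras1 at 0.0036 with quantile normalization. With 1 library left out the log2 change ranged from -0.14 to 0.01 for Lamb2, -0.16 to 0.04 for Lamb3, -0.05 to 0.05 for Lamc1, -0.06 to 0.08 for Lamc3, -0.12 to 0.09 for Nid2, -0.19 to 0.08 for Hspg2, -0.11 to 0.09 for Npnt, -0.06 to 0.06 for Fras1, -0.08 to 0.03 for Itga11, -0.02 to 0.23 for Itgb3 and -0.26 to 0.10 for Itgb6. Precision is limited by 3 libraries per genotype and, for Itga7, Itga11 and Itgb3, by values near 1 FPKM. Annotated exons of other genes overlap several members, among them G0s2 and Hsd11b1 for Lamb3, Rtraf for Nid2, Pelo for Itga1, Cerkl for Itga4 and Mettl7b for Itga7. Strand use was not stated, and the part of these overlaps in the values was not tested.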
